A study of Mus musculus with 11 samples.

Results

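Prostaglandins are lipid mediators, and the genes that make them, receive them and clear them were followed here in mammary fibroblasts through the stages of breast cancer in mice. The 10 genes listed by name were the cyclooxygenases Ptgs1 and Ptgs2, the terminal synthases Ptges, Ptgis and Ptgds, the receptors Ptger2, Ptger3, Ptger4 and Ptgfr, and the degrading enzyme Hpgd. A gene was read from the brightest probe set whose only annotated symbol was that gene, which gave 9 of the 10 listed genes among 19938 genes in all. Each of the 9 had 1 such probe set. Ptgs1 had none that carried its symbol alone and was not analysed here.

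Fibroblasts of female mice were profiled on 11 arrays. Normal fibroblasts came from mammary glands of FVB/n mice at 8 weeks (2 arrays, D2 and D5), and the other arrays came from MMTV-PyMT mice, whose source is also given as FVB/n, with hyperplasia at 4 weeks (3 arrays, D6, D7 and D12), carcinoma at 9 weeks (3 arrays, D3, D4 and D10) and advanced carcinoma at 12 weeks (3 arrays, D8, D9 and D11). In MMTV-PyMT mice the mammary tumour virus promoter drives the polyoma middle T oncogene in the mammary epithelium. Each array held RNA from 1 cohort of several mice, and the cells were sorted for CD140a (PDGFRα) and against the macrophage antigen of the Adgre1 gene. The sources differ on EpCAM, which the sample labels give as a further negative marker and the methods name only for validation sorts, so whether epithelial cells were gated out of the arrays is not settled. Carcinoma and advanced carcinoma together are called cancer-associated fibroblasts (CAFs, 6 arrays) and were set against normal and hyperplasia together (5 arrays). Stage and age go together in this design and cannot be told apart. Comparisons with normal arrays also differ by genotype, and normal and hyperplasia together pool both genotypes. Values are log2 expression as the authors normalised it, so that a difference of 1 is a doubling, and the number of arrays limits the precision.

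Prostaglandin synthesis starts when a phospholipase A2 frees arachidonic acid from membranes, which a cyclooxygenase turns into the unstable prostaglandin H2. Terminal synthases then make prostaglandin E2 (Ptges), prostacyclin (Ptgis) or prostaglandin D2 (Ptgds), each of which acts on its own G protein-coupled receptors, and Hpgd oxidises prostaglandins to inactive forms. In tumours, prostaglandin E2 made by stromal and cancer cells is known for its part in inflammation, angiogenesis and immune suppression.

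Of the 9 genes, 8 have a promoter in the RefSeq table (build GRCm38.p6), which holds 250 bases before and 50 after the annotated start, and Ptgis has no entry. The promoters of 3 genes are shown, 5′ to 3′ on the gene's strand, with the motif matches in capitals. Hpgd and Ptgfr are shown because both were lower in CAFs, and Ptgs2 because its gene is the inducible entry point of the pathway. The Hpgd promoter lies at chr8:56294302-56294601 on the plus strand, the Ptgfr promoter at chr3:151837479-151837778 on the minus strand and the Ptgs2 promoter at chr1:150099781-150100080 on the plus strand.
Hpgd: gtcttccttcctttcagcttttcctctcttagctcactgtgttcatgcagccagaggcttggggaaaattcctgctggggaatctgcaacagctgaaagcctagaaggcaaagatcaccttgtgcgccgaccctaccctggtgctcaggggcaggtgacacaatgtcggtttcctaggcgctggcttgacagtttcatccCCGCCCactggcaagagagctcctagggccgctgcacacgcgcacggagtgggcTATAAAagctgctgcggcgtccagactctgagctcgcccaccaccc
Ptgfr: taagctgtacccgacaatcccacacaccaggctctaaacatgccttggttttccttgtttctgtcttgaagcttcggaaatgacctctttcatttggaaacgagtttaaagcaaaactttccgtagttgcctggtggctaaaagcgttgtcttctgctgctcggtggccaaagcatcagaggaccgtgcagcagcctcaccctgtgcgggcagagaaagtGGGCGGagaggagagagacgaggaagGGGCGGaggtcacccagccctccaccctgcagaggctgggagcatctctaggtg
Ptgs2: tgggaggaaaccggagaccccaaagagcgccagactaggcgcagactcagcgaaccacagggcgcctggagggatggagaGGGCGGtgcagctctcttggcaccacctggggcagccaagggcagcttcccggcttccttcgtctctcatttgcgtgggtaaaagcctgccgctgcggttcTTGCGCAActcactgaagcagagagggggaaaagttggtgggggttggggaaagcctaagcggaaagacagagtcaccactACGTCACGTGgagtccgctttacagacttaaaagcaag
The motifs were searched on both strands, 7 in all. The GC box (GGGCGG), found in 35.7% of all 32851 promoters of the table, was in 6 of the 8 promoters (Ptgs2, Ptges, Ptgfr, Ptger3, Hpgd and Ptger4). The TATA box (TATAAA, 13.6% of all promoters) was in that of Hpgd alone among the 8. The Ptgs2 promoter held a palindromic C/EBP motif (TTGCGCAA, 0.183% of all promoters), an E-box (CACGTG, 7.15%) and a cAMP response element core (TGACGT, 7.51%), and the last 2 overlap in 1 run of capitals. The CCAAT box (CCAAT, 37.4%) was in Ptger2 and Ptger4, and an AP-1 motif (TGACTCA, 5.2%) was in Ptgds. The capitals mark letter matches only.

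Some facts of the whole series bear on every value below. For all 35399 probe sets, the average of advanced carcinoma D11 and normal D2 equalled that of the remaining 9 arrays almost exactly (their sum was off by 0.000144 at most), and the sources name no step that ties them. For named genes, calls that ended with a term for these 2 arrays or without them are given. Carcinoma D4 stood apart, averaging 9.28 over the 13 fibroblast markers where the rest of the CAF arrays had 10.55 to 10.91 and normal and hyperplasia arrays 10.79 to 11.19, so the markers lay well above the array medians (5.28 to 5.39) in every array and were lowest in D4. Markers of other cells moved with the CAF label as well. Of 11 macrophage markers, 11 were higher in CAFs (array means 6.23 to 8.27 in CAFs, against 4.61 to 6.08 in the others). So were 14 of 15 luminal epithelial markers (8.29 to 9.45 in CAFs, against 5.91 to 7.52). The luminal means also lay above the array medians in every array. In D4 the luminal mean (9.45) was above the fibroblast mean (9.28), and D4 had the highest luminal and basal epithelial (6.61) means of all arrays. Of 10 adipocyte markers, 7 were lower in CAFs (5.91 to 6.37, against 6.41 to 7.21), and 2 of the 13 fibroblast markers were lower. Of the other lists, 5 of 10 T and NK cell markers and 3 of 5 B cell markers were lower, 3 of 6 basal epithelial markers were higher, and in each of the endothelial, mast cell, pericyte and platelet lists at most 2 markers were higher and at most 2 lower.

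In CAFs, 3 of the 9 prostaglandin genes were lower than in normal and hyperplasia arrays and none was higher. The 3 were Hpgd, which inactivates prostaglandins, Ptgis, which makes prostacyclin, and Ptgfr, the receptor of prostaglandin F2α. They were called by limma at an adjusted p under 0.05, a rule that called 12.8% of all genes lower in CAFs and 12% higher. The median difference was −0.29 over the 9 genes and −0.04 over all genes. Without carcinoma D4, 5 of the 9 were called (23.6% of all genes in either direction), since Ptges (lower) and Ptger3 (higher) were added.

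**Figure D1:**
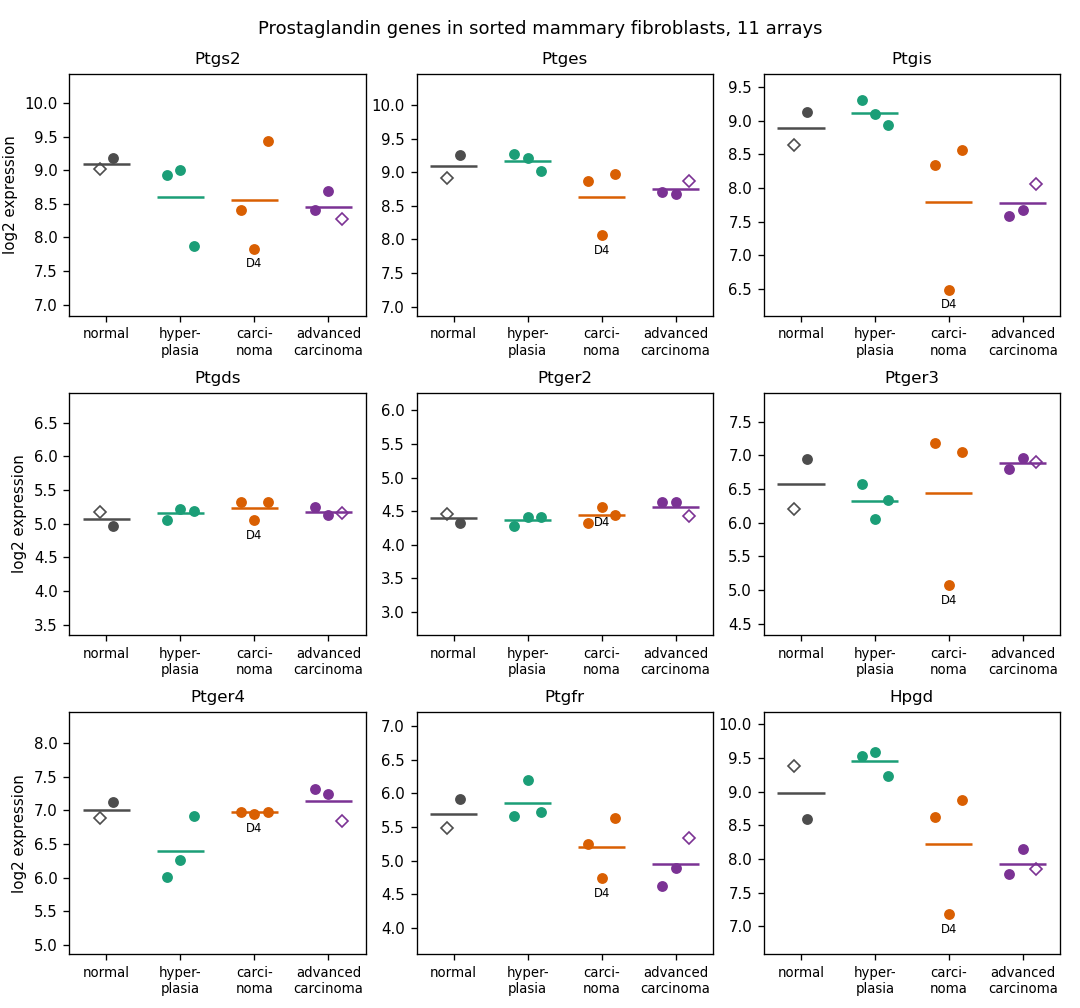
Log2 expression (vertical axis, the same span in each panel) of the 9 genes in each array, by stage from normal to advanced carcinoma. Points are arrays, lines are stage means, open diamonds are the 2 tied arrays (normal D2 and advanced carcinoma D11), and carcinoma D4 is named. Ptgis, Ptgfr and Hpgd sit lower in both carcinoma stages, and D4 is the lowest CAF array for Ptgs2, Ptges, Ptgis, Ptgds, Ptger3 and Hpgd.

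Ptgs2 encodes the inducible cyclooxygenase. Its level was 9.01 and 9.18 in normal arrays, 8.93, 9.0 and 7.88 in hyperplasia, 8.41, 7.83 and 9.44 in carcinoma (D3, D4 and D10), and 8.41, 8.69 and 8.27 in advanced carcinoma. The highest and the lowest of all 11 arrays were both carcinoma arrays, and the groups overlapped. Ptgs2 averaged 8.51 ± 0.54 in CAFs (SD, n = 6) and 8.80 ± 0.52 in normal and hyperplasia arrays (SD, n = 5). The difference of −0.29 (95% CI −0.93 to 0.35) did not pass (adjusted p = 0.494, limma), and the interval still allows a change of either sign. Advanced carcinoma was the most even stage for Ptgs2 apart from the normal pair, with an SD of 0.21, against 0.82 in carcinoma and 0.63 in hyperplasia.

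Ptges encodes the microsomal synthase that makes prostaglandin E2 downstream of Ptgs2. It stood at 8.92 and 9.26 in normal arrays, 9.27, 9.21 and 9.02 in hyperplasia, 8.87, 8.06 and 8.98 in carcinoma, and 8.70, 8.68 and 8.87 in advanced carcinoma. Of the 6 CAF arrays, 5 were below each normal and hyperplasia array, and carcinoma D10 alone lay within their range. The mean was 8.69 ± 0.33 in CAFs and 9.14 ± 0.16 in the others, a difference of −0.44 (95% CI −0.77 to −0.11) that missed the threshold (adjusted p = 0.0506, limma). The call changed with single arrays. It passed without carcinoma D4 (−0.32, adjusted p = 0.024), without carcinoma D10 (−0.50, adjusted p = 0.0326) and without normal D2 (−0.50, adjusted p = 0.0492).

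Ptgis, prostacyclin synthase, separated the groups completely. Its level was 8.64 and 9.13 in normal arrays, 9.31, 9.10 and 8.94 in hyperplasia, 8.34, 6.49 and 8.56 in carcinoma, and 7.58, 7.68 and 8.06 in advanced carcinoma. All 6 CAF arrays were below all 5 other arrays, a separation seen in 7.14% of all genes. Ptgis averaged 7.79 ± 0.74 in CAFs and 9.02 ± 0.25 in the others, 2.36-fold lower in CAFs (−1.24 ± 0.32 SE, adjusted p = 0.0162, limma). The low value of D4 widened the difference and its error together, and without D4 it was −0.98 with an adjusted p of 0.00583. It passed in each of the 11 fits that left out 1 array and without both tied arrays (adjusted p = 0.0313). Ptgir, the prostacyclin receptor, averaged 5.65 in CAFs and 5.86 in the others, and its difference of −0.21 did not pass (adjusted p = 0.585, limma).

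Ptgds, the lipocalin-type synthase of prostaglandin D2, varied little. It ranged from 5.05 to 5.32 in CAFs and from 4.97 to 5.22 in the others, with a difference of 0.09 (95% CI −0.06 to 0.23, adjusted p = 0.373, limma). Its range over all 11 arrays was 0.35, and the groups overlapped. The values carry no detection call, so whether the gene was expressed at this level was not tested.

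Hpgd encodes the dehydrogenase that begins the breakdown of prostaglandins E2 and F2α. It was 9.38 and 8.59 in normal arrays, 9.53, 9.59 and 9.23 in hyperplasia, 8.62, 7.18 and 8.87 in carcinoma, and 7.77, 8.15 and 7.85 in advanced carcinoma. The 3 advanced carcinoma arrays and D4 were below every normal and hyperplasia array, and carcinoma D3 and D10 were above normal D5 only. Hpgd averaged 8.07 ± 0.61 in CAFs and 9.26 ± 0.40 in the others, 2.28-fold lower in CAFs (−1.19 ± 0.29 SE, 95% CI −1.83 to −0.55, adjusted p = 0.0135, limma). It passed in each of the 11 fits that left out 1 array, and without D4 the difference was −1.01 (adjusted p = 0.0152). Without both tied arrays it missed the threshold (−1.12, adjusted p = 0.0539), and with a term for them it passed (adjusted p = 0.0222). Without D4 and both tied arrays it missed the threshold too (−0.88, adjusted p = 0.0668, limma).

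The 3 receptors of prostaglandin E2 among the members did not pass in CAFs. Ptger2 and Ptger4 signal through a rise in cAMP, and Ptger3 mostly through its fall. Ptger2 ranged from 4.32 to 4.64 in CAFs and from 4.28 to 4.46 in the others (difference 0.13, 95% CI −0.02 to 0.27, adjusted p = 0.179, limma). Every Ptger2 value lay below the array medians (5.28 to 5.39), and whether Ptger2 was expressed at this level was not tested. Ptger4 was 6.88 and 7.12 in normal arrays, 6.01, 6.26 and 6.92 in hyperplasia, 6.97, 6.95 and 6.98 in carcinoma, and 7.31, 7.24 and 6.84 in advanced carcinoma. Hyperplasia D6 and D7 were the 2 lowest arrays and the other 9 lay close together. Its difference was 0.41 (95% CI −0.01 to 0.83, adjusted p = 0.14, limma).

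The Ptger3 difference depended on 1 array. Its level was 6.20 and 6.95 in normal arrays, 6.58, 6.05 and 6.33 in hyperplasia, 7.19, 5.07 and 7.05 in carcinoma, and 6.80, 6.96 and 6.90 in advanced carcinoma. D4 was the lowest of all 11 arrays, while carcinoma D3 and D10 and advanced carcinoma D9 were above all normal and hyperplasia arrays, and advanced carcinoma D8 and D11 were below normal D5 alone. The difference was 0.24 (95% CI −0.52 to 1.01, adjusted p = 0.645, limma) over all arrays and 0.56 without D4, where it passed (adjusted p = 0.0248). Without D4 and both tied arrays it was 0.52 and missed the threshold (adjusted p = 0.0809).

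Ptgfr, the receptor of prostaglandin F2α, was lower in CAFs. It was 5.48 and 5.92 in normal arrays, 5.67, 6.20 and 5.72 in hyperplasia, 5.25, 4.74 and 5.63 in carcinoma, and 4.62, 4.89 and 5.33 in advanced carcinoma. Of the 6 CAF arrays, 5 were below all other arrays, and carcinoma D10 was above normal D2 only. Ptgfr averaged 5.08 ± 0.39 in CAFs and 5.80 ± 0.27 in the others, 1.65-fold lower in CAFs (−0.72 ± 0.19 SE, 95% CI −1.14 to −0.31, adjusted p = 0.0181, limma). It passed in each of the 11 fits that left out 1 array and without both tied arrays (adjusted p = 0.0236). The CAF mean of Ptgfr lay below the array medians (5.28 to 5.39). The filter at the median gene level (5.64) removed Ptgfr, whose mean over all arrays was 5.40. No detection call is given, so whether Ptgfr was expressed at this level was not tested.

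**Figure D2:**
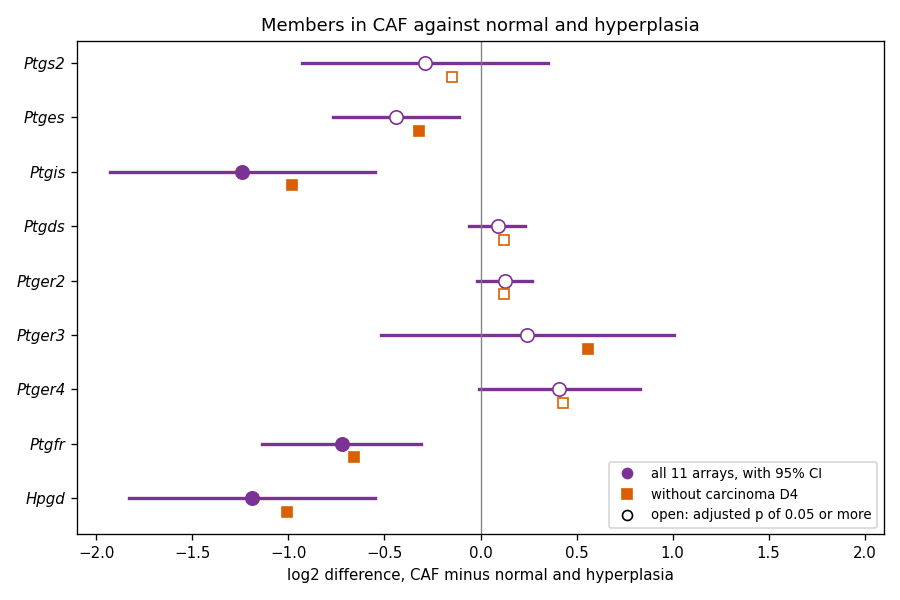
Log2 difference, CAFs minus normal and hyperplasia (horizontal axis), for each of the 9 genes. Circles and bars are the estimate and its 95% confidence interval over all 11 arrays, squares are the estimate without carcinoma D4, and filled symbols passed an adjusted p under 0.05. Ptgis, Ptgfr and Hpgd are filled in both fits, and Ptges (−0.32) and Ptger3 (0.56) only without D4.

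These are bulk samples, so fewer cells of a type and less RNA per cell cannot be told apart. The arrays in which Hpgd, Ptgis and Ptgfr were lower also had higher macrophage and luminal marker means. D4, the lowest CAF array for Hpgd and Ptgis, had the lowest fibroblast mean (9.28) and the highest luminal mean (9.45). For Ptgfr the lowest array was advanced carcinoma D8 (4.62), which had the lowest fibroblast mean after D4 (10.55) and high macrophage (8.11) and luminal (9.18) means. The part of these markers in the differences was not tested. The 3 genes remained lower and called when D4 was left out, while 9 of the 13 fibroblast markers were then lower as well. The CAF arrays other than D4 still had higher luminal means (8.29 to 9.18, against 5.91 to 7.52). Their macrophage means were higher too (6.23 to 8.27, against 4.61 to 6.08).

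Between single stages the intervals were wider, since each stage has 2 or 3 arrays. These comparisons share arrays with one another and with the CAF comparison. In advanced carcinoma against hyperplasia, 2 of the 9 genes were called (14.5% of all genes). Hpgd averaged 7.92 ± 0.20 in advanced carcinoma and 9.45 ± 0.19 in hyperplasia (SD, n = 3 each), 2.88-fold lower (−1.53, adjusted p = 0.0339, limma). Ptgfr averaged 4.95 ± 0.36 in advanced carcinoma and 5.87 ± 0.29 in hyperplasia, 1.89-fold lower (−0.92, adjusted p = 0.0476, limma). For both genes the 3 advanced carcinoma arrays lay below the 3 hyperplasia arrays. The stages did not overlap for 6 of the 9 genes, against 42.1% of all genes.

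Both calls depended on single arrays. Hpgd kept its call in 5 of the 11 fits that left out 1 array and lost it without any 1 array of either stage (adjusted p = 0.0561 to 0.117). Ptgfr kept it in 3 of 11, without carcinoma D4, carcinoma D10 or advanced carcinoma D11, and reached an adjusted p of 0.168 without advanced carcinoma D8. With the term for the tied arrays, Hpgd (0.0559) and Ptgfr (0.0776) missed the threshold and Ptger4 was the only gene called, and without both tied arrays Hpgd missed it too (0.0926). Ptger4 averaged 7.13 ± 0.25 in advanced carcinoma and 6.40 ± 0.47 in hyperplasia (0.74, adjusted p = 0.0506, and 0.0439 with the term, limma), and also passed without D4 (adjusted p = 0.0403), hyperplasia D12 (adjusted p = 0.00738) or advanced carcinoma D11 (adjusted p = 0.044). Ptgis averaged 7.77 ± 0.25 in advanced carcinoma and 9.12 ± 0.19 in hyperplasia, and its difference of −1.34 missed the threshold (adjusted p = 0.0851, limma). Without D4, which belongs to neither stage but enters the shared estimate of the spread, 5 of the 9 genes were called (25.2% of all genes), Ptgis among them (adjusted p = 0.000839).

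In advanced carcinoma against normal, 0 of the 9 genes were called by limma (5.61% of all genes). In limma 2 passed an unadjusted p under 0.05, as did 22.6% of all genes, and by unmoderated contrasts of the stage means, the methods' own test, 0 were called and 0 passed unadjusted. Hpgd averaged 7.92 in advanced carcinoma and 8.99 in normal arrays (−1.06, 95% CI −2.06 to −0.06, adjusted p = 0.198, limma). Ptgfr averaged 4.95 in advanced carcinoma and 5.70 in normal arrays (−0.75, 95% CI −1.42 to −0.09, adjusted p = 0.171, limma). The 3 advanced carcinoma arrays were below both normal arrays for each of them, as for Ptgs2, Ptges and Ptgis, which makes 5 of 9 genes, against 26.5% of all genes. Without D4, 2 genes were called (15.8% of all genes), Ptgis with −1.12 (adjusted p = 0.00552) and Hpgd with −1.06 (adjusted p = 0.0148).

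In carcinoma against hyperplasia, 0 of the 9 genes were called by limma (9.25% of all genes) and 0 by the unmoderated contrasts, while 5 passed an unadjusted p under 0.05 in limma (28% of all genes) and 3 in the unmoderated contrasts (26.3% of all genes). The 5 were Hpgd (−1.23), Ptgis (−1.32), Ptgfr (−0.66), Ptges (−0.53) and Ptger4 (0.57), with adjusted p from 0.0869 to 0.155. For these 5 of 9 genes the 3 carcinoma arrays and the 3 hyperplasia arrays did not overlap, as for 30.4% of all genes. Leaving out D4 brought the Hpgd difference to −0.70 and the Ptgis difference to −0.66. Leaving out carcinoma D10 brought them past the threshold, at −1.55 for Hpgd (adjusted p = 0.0395) and −1.70 for Ptgis (adjusted p = 0.0466), and leaving out hyperplasia D12 did so for Ptger4 (0.83, adjusted p = 0.0189).

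In carcinoma against normal, 0 of the 9 were called by limma (0.938% of all genes), 0 passed an unadjusted p under 0.05 (18% of all genes) and 0 were called by the unmoderated contrasts. In hyperplasia against normal, 0 were called by limma (0% of all genes) and 0 by the unmoderated contrasts, and 1 passed an unadjusted p under 0.05 in limma (4.22% of all genes). That gene was Ptger4, at 6.40 ± 0.47 in hyperplasia and 7.0 ± 0.17 in normal arrays (−0.61, 95% CI −1.15 to −0.06, adjusted p = 0.999, limma). In advanced carcinoma against carcinoma, 0 were called by limma (0% of all genes) and 0 by the unmoderated contrasts, and 0 passed an unadjusted p under 0.05 (5.64% of all genes). The Ptgis difference between the carcinoma stages was −0.03 over all arrays and −0.68 without D4 (adjusted p = 0.174, limma).

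**Figure D3:**
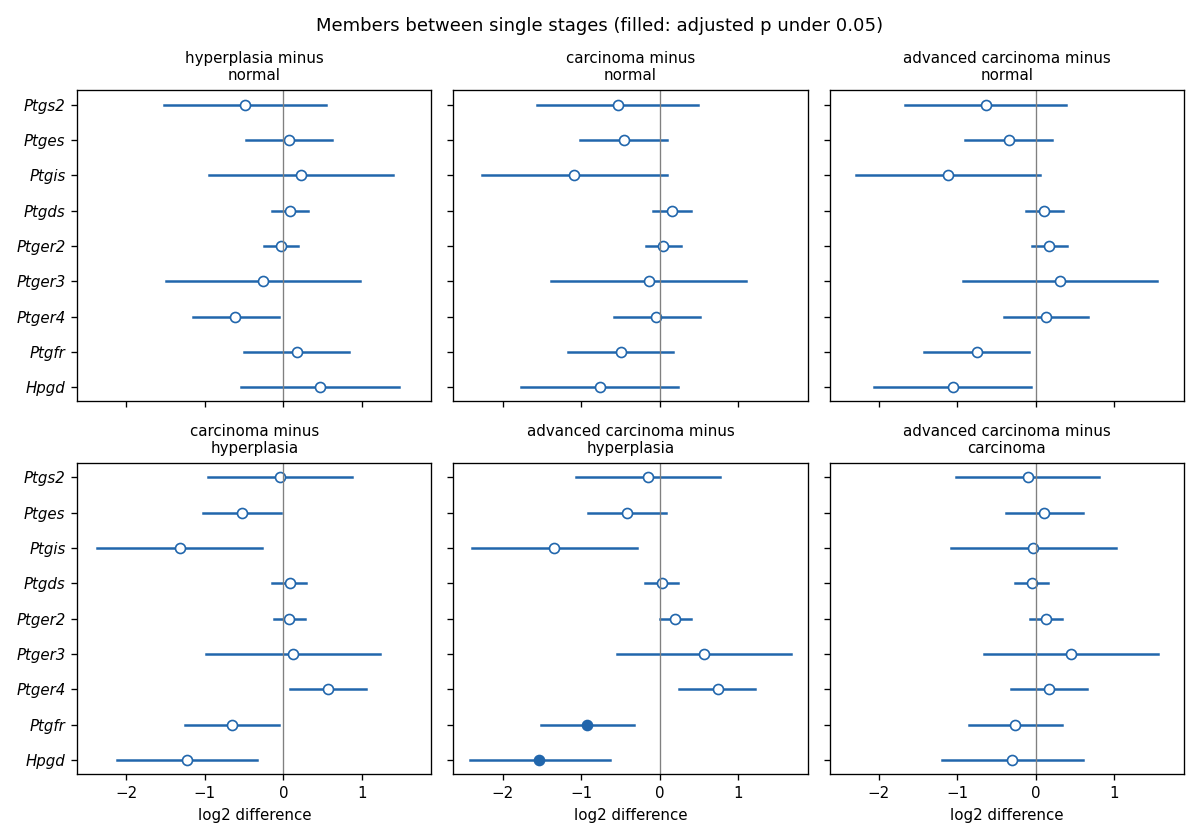
Log2 differences (horizontal axes) of the 9 genes in the 6 comparisons of single stages, with 95% confidence intervals as bars. Filled circles passed an adjusted p under 0.05, which only Hpgd (−1.53) and Ptgfr (−0.92) did, both in advanced carcinoma minus hyperplasia.

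Over the arrays, 4 genes varied by an SD above 0.5, and for each the genes with the closest profile are named by the root mean square difference over 11 arrays after centring, as a description without a test. Ptgis was closest to Evc (0.0923), Tmeff2 (0.0932) and Gdf10 (0.109), against a spread of its own of 0.807. Hpgd was closest to Sytl2 (0.237), Pdgfd (0.242) and Qpct (0.243), with a spread of 0.762, and its distance to Ptgis was 0.356. By closeness among all genes, Ptgis ranked only 120 for Hpgd, and Hpgd ranked 369 for Ptgis. Ptger3 was closest to Cyp7b1 (0.138), Fzd1 (0.139) and Cd109 (0.182), and Ptgs2 to Htr2a (0.225), Sgms2 (0.268) and Rras2 (0.284). The arrays share the same 11 points, D4 among them, so these likenesses include its low values.

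Of 46 other measured genes of the eicosanoid pathway, 6 were higher and 4 lower in CAFs (limma, background as above, 12% and 12.8% of all genes). Their median difference was 0.00. By role, these were 3 of 18 phospholipase A2 genes, 3 of 6 other prostanoid synthases, 1 of 5 genes of inactivation and transport, 3 of 9 lipoxygenase and leukotriene genes, 0 of 6 other prostanoid receptors and 0 of 2 endocannabinoid hydrolases. The receptors Ptger1, Ptgdr, Ptgdr2, Ptgir, Tbxa2r and the Ptgfr-binding protein Ptgfrn ranged from −0.57 to 0.08. Of the 46, 14 passed an unadjusted p under 0.05 in limma, as did 38.4% of all genes. Unmoderated contrasts of the 2 groups called 2 higher and 3 lower, and 21.7% of all genes in either direction.

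Akr1c18, an aldo-keto reductase that inactivates progesterone and is listed with the prostaglandin F synthases, had the largest difference among these genes. It was 11.26 and 10.46 in normal arrays, 11.61, 11.73 and 10.65 in hyperplasia, 9.32, 7.96 and 9.89 in carcinoma, and 7.86, 8.26 and 8.24 in advanced carcinoma. All CAF arrays were below all others. It averaged 8.59 in CAFs and 11.14 in the others, 5.87-fold lower in CAFs (−2.55 ± 0.39 SE, adjusted p = 0.00131, limma), and passed in each of the 11 fits that left out 1 array. Abcc4, a transporter that exports prostaglandins, averaged 6.27 in CAFs and 7.06 in the others (−0.78, adjusted p = 0.0188, limma), and missed the threshold without both tied arrays (adjusted p = 0.0511).

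In CAFs, 2 genes of arachidonate release were higher without overlap (7.77% of all genes). Pla2g12a, a secreted phospholipase A2, ranged from 5.33 to 5.57 in CAFs and from 4.92 to 5.03 in the others (0.48, adjusted p = 0.000225, limma). Plaat3, a phospholipase A and acyltransferase, ranged from 5.83 to 6.34 in CAFs and from 5.35 to 5.62 in the others (0.52, adjusted p = 0.00498, limma). Both passed in each of the 11 fits that left out 1 array. Cysltr2, a receptor of cysteinyl leukotrienes, was lower without overlap (4.46 to 4.66 in CAFs, against 4.69 to 5.0, difference −0.26, adjusted p = 0.0161, limma), and missed the threshold without both tied arrays (adjusted p = 0.0724). The secreted phospholipase A2 gene Pla2g2e was lower as well, with overlap (−0.29, adjusted p = 0.0368, limma). It averaged 5.25 in hyperplasia, 4.91 in normal, 4.81 in carcinoma and 4.84 in advanced carcinoma arrays. Against normal arrays alone, neither carcinoma (−0.10, adjusted p = 0.604, limma) nor advanced carcinoma (−0.07, adjusted p = 0.735, limma) passed. The call in CAFs was kept in 3 of 11 fits that left out 1 array. It was lost with the term for the tied arrays (adjusted p = 0.0549) and without both (0.0653). The call was also lost without any 1 of the hyperplasia and advanced carcinoma arrays, carcinoma D3 or D4 (up to 0.0875, without hyperplasia D7). Cysltr2 and Pla2g2e averaged below the array medians (5.28 to 5.39) in CAFs and in the others, as did Pla2g12a in the others (4.96). Whether these genes were expressed at such levels was not tested.

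Against normal arrays alone, 4 of the 46 genes were called in advanced carcinoma, beside 5.61% of all genes. Plaat3 was higher (0.75, adjusted p = 0.00995, limma), as was Pla2g12a (0.47, adjusted p = 0.0182, limma). Cysltr2 was lower (−0.44, adjusted p = 0.0124, limma), and so was Akr1c18 (−2.74, adjusted p = 0.0253, limma). Some of these calls rested on single advanced carcinoma arrays. In limma, Akr1c18 missed the threshold without D8 (adjusted p = 0.0936), D9 (0.0861) or D11 (0.054). Pla2g12a missed it without D8 (0.0664) or D9 (0.0674), and Cysltr2 without D9 (0.0523). Akr1c18 also missed it by the unmoderated contrasts (adjusted p = 0.0809). With 2 normal arrays, each of the 4 missed the threshold without normal D5, at an adjusted p of 0.0956 for Plaat3, 0.104 for Pla2g12a, 0.123 for Cysltr2 and 0.109 for Akr1c18. Without normal D2, Pla2g12a (0.102), Cysltr2 (0.0579) and Akr1c18 (0.132) did so too, and the term for the tied arrays brought Akr1c18 to 0.0533. Without both tied arrays Pla2g12a (0.151), Cysltr2 (0.0928) and Akr1c18 (0.173) missed it.

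The 4 remaining higher genes belong to pathways that macrophages and other myeloid cells are known to use. Hpgds makes prostaglandin D2 in haematopoietic cells, Tbxas1 makes thromboxane, and Alox5 with its activating protein Alox5ap starts leukotriene synthesis. Hpgds was 4.56 and 4.10 in normal arrays, 4.10, 4.25 and 4.28 in hyperplasia, 4.48, 5.71 and 4.45 in carcinoma, and 6.0, 6.04 and 5.09 in advanced carcinoma (1.04, adjusted p = 0.0295, limma). Tbxas1 ranged from 4.48 to 5.69 in CAFs and from 4.08 to 4.64 in the others (0.80, adjusted p = 0.0264, limma). Alox5 and Alox5ap were higher by 0.91 (adjusted p = 0.0456, limma) and 1.11 (adjusted p = 0.0488, limma). In normal and hyperplasia arrays Hpgds (4.26), Tbxas1 (4.29) and Alox5 (4.44) averaged below the array medians (5.28 to 5.39), as did Tbxas1 in CAFs (5.09). Whether they were expressed at such levels was not tested.

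For each of these 4 genes the highest arrays were D4, D8 and D9, which also had the highest macrophage marker means (7.83, 8.11 and 8.27, against 4.61 to 6.49 in the other arrays). The part of macrophage RNA in these values was not tested. The calls were less steady than those of Akr1c18 or Pla2g12a. Each was lost without normal D5, any 1 of the 3 hyperplasia arrays, advanced carcinoma D8 or D9, with adjusted p up to 0.0651 for Hpgds, 0.0632 for Tbxas1, 0.0981 for Alox5 and 0.113 for Alox5ap. Without D4, Hpgds (0.0515), Alox5 (0.0787) and Alox5ap (0.0834) also missed the threshold, and Tbxas1 kept it (0.0458). With the term for the tied arrays, Alox5 (0.0645) and Alox5ap (0.0683) missed it, and without both tied arrays Hpgds did (0.0536).

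**Figure D4:**
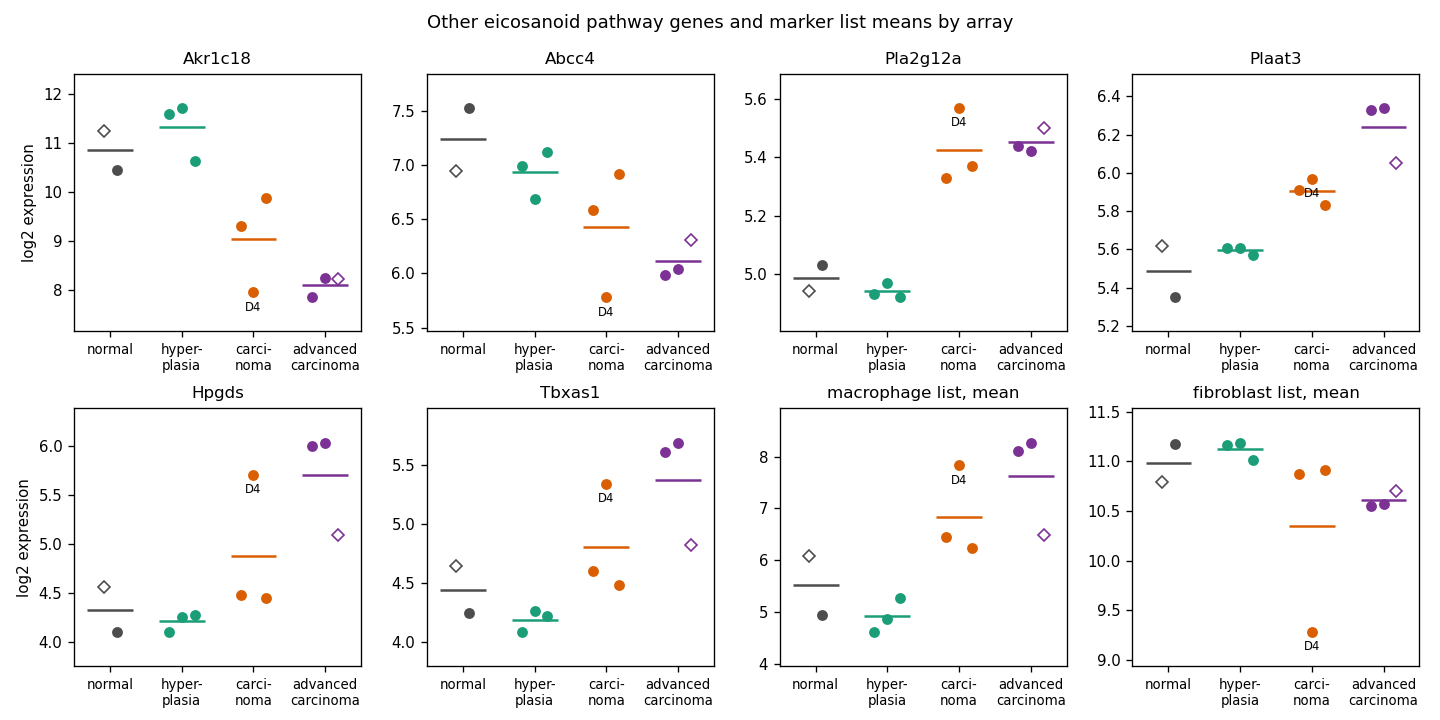
Log2 expression (vertical axes, scaled per panel) of 6 other pathway genes and the mean of the macrophage and fibroblast marker lists in each array, by stage. Points are arrays, lines are stage means, open diamonds are the 2 tied arrays, and carcinoma D4 is named. Akr1c18 is lower in all 6 CAF arrays, and Hpgds and Tbxas1 are highest in D4, D8 and D9, as is the macrophage mean.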

How the data were processed

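Fibroblast RNA was converted to cDNA and hybridised with whole-transcript mouse GeneChips (Affymetrix). Normalisation and summarisation were done by the authors with RMA (robust multi-average) in Partek 6.5, and the 35399 probe sets were deposited as log2 expression. Array medians lay between 5.28 and 5.39. A genome build for the probe sets is not given in the sources used here. Of the probe sets, 21789 carry 1 symbol in the platform annotation, 1621 carry several and 11989 carry none there. The brightest probe set of each symbol was kept. No column was without a sample (0).

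The R package limma (3.58.1, R 4.3.3) was fitted over all arrays, with 4 stages for comparisons of stages and with 2 groups for CAFs. P-values were adjusted by Benjamini-Hochberg over all 19938 genes of each comparison. Other pathway genes were named where they passed in CAFs or in advanced carcinoma against normal. Ptgir and the rest of the other prostanoid receptors were named as well, although none of them passed. The alternatives were median centring, quantile normalisation, a filter at the median gene level (5.64), all probe sets kept and unmoderated one-way ANOVA contrasts. One-way ANOVA is the test the methods name, but for CAFs the unmoderated contrast was of the 2 groups and not of the 4 stages. Further alternatives were trend with robust estimates, array weights, a term for or removal of the tied arrays and 2 stages only. The last were the contrast of stage means, the study's threshold (unadjusted p under 0.05 and fold over 1.5) set on limma p-values, and each array left out. The study itself set that threshold on one-way ANOVA p-values. Fits without carcinoma D4 that also treated the tied arrays were added after seeing the data. The fit was tested on simulated data. Members, gene lists and tests were chosen with earlier results of these data known.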

Additional observations from a re-analysis of the deposited data

Results flagged for a closer look

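In all, 5 values lay far from the rest of their group by Dixon's gap ratio, a criterion that chance alone meets in about 1 in 20 groups. The ratio was taken for the 9 members and the 10 pathway genes called, each in CAFs and in normal and hyperplasia arrays. Among CAF arrays, carcinoma D4 was the lowest for Ptger3 (5.07, with the next array 1.74 higher) and for Ptges (8.06, with the next 0.62 higher). Among normal and hyperplasia arrays, hyperplasia D12 was the lowest for Ptgs2 (7.88, with the next 1.04 higher). Of the other pathway genes, normal D5 was the lowest of that group for Plaat3 (5.35) and normal D2 the highest for Alox5 (5.05). Normal D2 is 1 of the 2 tied arrays and had the highest macrophage marker mean of the normal and hyperplasia arrays (6.08), whose part in the Alox5 value was not tested.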

How the results depend on the processing

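No result reversed. Of 1491 alternative values of the members' differences, 1410 kept their side of the threshold, 21 lost it and 60 gained it, and 65 of the 1373 alternatives of differences not called changed sign. In CAFs the 3 members called became 5 without carcinoma D4, also with a term for the tied arrays, 2 without both tied arrays, and 4 with median centring or with trend and robust estimates, and leaving out 1 array gave 3 to 5. In advanced carcinoma against normal the count of 0 became 3 with array weights, 2 with the 2 stages alone, 2 at the study's threshold, 3 without D4 and both tied arrays, 2 without D4 and with the term, and 0 to 2 with 1 array left out. In hyperplasia against normal it became 1 at the study's threshold. That threshold was set here on limma p-values. By the unmoderated contrasts, 0 members passed an unadjusted p under 0.05 in advanced carcinoma against normal, and 0 in hyperplasia against normal. In advanced carcinoma against hyperplasia the count of 2 became 0 by ANOVA, 6 with array weights, 1 with the term, 1 without the tied arrays, 5 with the 2 stages alone, 4 at the study's threshold, 6 without D4 and the tied arrays, 5 without D4 and with the term, and 0 to 5 with 1 array left out. In carcinoma against hyperplasia 0 became 1 with array weights, 3 at the study's threshold, 3 without D4 and the tied arrays, and 0 to 2 with 1 array left out. In advanced carcinoma against carcinoma 0 became 1 without D4 and the tied arrays, and in carcinoma against normal it stayed at 0. The causes were not tested. Ptges also passed in CAFs with each array centred on its median (−0.53, adjusted p = 0.0275), with genes below the median level removed (adjusted p = 0.0425) and with trend and robust estimates (adjusted p = 0.0472).

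Over all genes, those called numbered 4961 in CAFs (3703 to 5427 with 1 array left out, 2426 to 7062 otherwise), 1118 in advanced carcinoma against normal (40 to 3143, 27 to 3908), 187 in carcinoma against normal (0 to 587, 0 to 1391), 0 in hyperplasia against normal (0 to 1, 0 to 200), 2897 in advanced carcinoma against hyperplasia (892 to 5017, 1812 to 6237), 1845 in carcinoma against hyperplasia (354 to 2685, 5 to 2937) and 0 in advanced carcinoma against carcinoma (0 to 2, 0 to 1301). The 10 pathway genes called in CAFs became 5 to 10 with 1 array left out and 4 to 10 otherwise. No paired analysis was made, since each array holds a cohort of 1 stage and the sources name no pairing of cohorts between stages. The number of arrays, 2 or 3 a stage, limits what these comparisons can show.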
